A study of Mus musculus with 8 samples.

Results

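The 10 genes described here encode proteins that release, admit, remove or respond to calcium in the mouse egg. They were taken by symbol as *Itpr1*, *Plcb1*, *Trpm7*, *Cacna1h*, *Stim1*, *Atp2a2*, *Atp2b1*, *Camk2g*, *Camk2d* and *Ppp3ca*. All 10 were among the 15962 genes listed in every library. A total of 8 reached 1 TPM (a share of the library's transcripts, corrected for gene length) in 2 or more libraries and were among the 13968 genes tested, and *Stim1* and *Camk2d* did not. Polyadenylated RNA had been measured in 8 Smart-seq2 libraries, 2 from each of 4 groups, with 15 oocytes pooled in a library. The study's methods give female outbred ICR mice of 6 weeks, primed with gonadotropin, as the source of oocytes. GV oocytes were arrested in prophase with an intact germinal vesicle, and MII oocytes had been matured in culture to metaphase of the second division. Both were uninjected and are labelled wild type. Btg4wt and Btg4tm oocytes were MII oocytes that had received cRNA for Myc-tagged BTG4 as fully grown oocytes. BTG4 is an adaptor that brings the CCR4-NOT deadenylase to maternal mRNAs. The Btg4tm protein carries alanine in place of neighbouring threonine and serine residues that the study found phosphorylated. Injected oocytes still carried their own *Btg4*, although the study reports that either added protein seemed to lower the amount of the oocyte's own BTG4. No oocytes injected with a control RNA were analysed here, so injection and added BTG4 cannot be told apart when Btg4wt is set against MII.

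At fertilization, a sperm phospholipase C cleaves a membrane lipid to inositol trisphosphate, which opens receptors on the endoplasmic reticulum and sets off repeated rises of cytosolic calcium. Channels of the plasma membrane refill the stores, and pumps lower the cytosolic level again. Calmodulin passes the signal to the phosphatase calcineurin and to the kinase CaMKII, which ends the arrest at metaphase II. This machinery is assembled before fertilization, while the oocyte matures without transcription and removes a large part of its maternal mRNA.

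Values below are TPM after each library was scaled by its median ratio to the others (factors 0.948 to 1.11). Read depth cannot be had from TPM, so the precision rests on 2 libraries per group, and p-values measure the spread between these libraries, which are not stated to come from separate animals. Priming with oligo(dT) means that less RNA and a shorter poly(A) tail cannot be told apart, nor can fewer cells of a type and less RNA per cell. All 10 oocyte markers examined were listed, with summed levels from 33881 to 48237 scaled TPM. Of 12 cumulus and granulosa cell markers, 5 were listed in every library, and their summed level was 23.8 to 24.2 in GV, 32.0 to 34.9 in MII, 27.7 to 32.5 in Btg4wt and 27.6 to 33.0 in Btg4tm. Within this sum, *Inha* was higher in Btg4tm (9.83 and 5.18) than in Btg4wt (1.88 and 1.09). *Cyp19a1* (19.2 and 18.0 against 23.4 and 20.5) and *Kitl* (2.79 and 2.78 against 5.86 and 5.02) were lower in Btg4tm. *Star* and *Hsd3b1* lay below 1 scaled TPM in both injected groups. Of 5 sperm markers, 1 was listed, *Prm2*, at 21.6 to 22.8 in GV, 4.37 to 6.15 in MII, 5.53 to 6.67 in Btg4wt and 15.4 to 18.0 in Btg4tm. The part of these markers in the results was not tested.

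The 3′ ends of the calcium mRNAs are shown first, because oligo(dT) primes at the poly(A) tail that follows them. CPEB1 binds U-rich cytoplasmic polyadenylation elements in maturing oocytes and the hexamer AATAAA or ATTAAA directs cleavage. The element was searched as TTTTAT or TTTTAAT on the sense strand in the last 100 bases of the 3′ UTR of the chosen transcript of each gene (GRCm38, GENCODE M21). It was present in 3 of 10 calcium genes (30%) and in 2096 of 10398 tested coding genes with such a window (20.2%). The windows of *Atp2b1*, *Plcb1* and *Atp2a2* read as follows in 5′ to 3′ order of the mRNA, with the element in capitals. The matches end 69, 45 and 84 bases, respectively, before the end of the chosen transcript. The annotated *Atp2a2* gene, with 5 transcripts, runs on downstream of that end, to position 122453513. Other annotated 3′ ends were not searched.
Atp2b1, chr10:99026057-99026086, plus strand: agccactgagccTTTTATtatttgtctatt
Plcb1, chr2:135475185-135475214, plus strand: ttccacttgtaaTTTTATgtgctttcatca
Atp2a2, chr5:122456412-122456441, minus strand: atgtctaatgtaTTTTATtgtaacagacat
A cleavage hexamer stood in the last 40 bases of 9 of 10 calcium genes (90.0%) against 77.3% of those coding genes, and *Ppp3ca* had no match. The sites of 4 genes are printed with the hexamer in capitals, and *Trpm7* carries the ATTAAA form. These 4 were lower in Btg4tm than in Btg4wt at a limma adjusted p under 0.05, without the log2 difference above 1 needed for a call.
Atp2b1, chr10:99026103-99026132, plus strand: cttaactcatttAATAAAtatactgtttat
Camk2g, chr14:20734880-20734909, minus strand: ttgaagatatttAATAAAataacctttaaa
Itpr1, chr6:108551078-108551107, plus strand: ctaaaaatatttAATAAAcgatgcagaatc
Trpm7, chr2:126791569-126791598, minus strand: tctttaaaagaaATTAAAtttattcttgtt
A match is a description of letters, not of a functional site, and of these 4 genes only *Atp2b1* held both motifs within its windows.

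In GV oocytes the order of mean scaled TPM, which is a level per length, was *Camk2g* (52.1 ± 1.84, SD, n = 2), *Atp2a2* (48.3 ± 0.644), *Atp2b1* (31.5 ± 1.92), *Plcb1* (15.8 ± 3.35), *Trpm7* (8.71 ± 1.06), *Itpr1* (3.80 ± 0.629), *Cacna1h* (2.10 ± 0.338), *Ppp3ca* (1.49 ± 0.473), *Stim1* (0.447 ± 0.152) and *Camk2d* (0.0627 ± 0.0495). The 2 libraries of neighbours in this order did not overlap. *Camk2g* also led in the other 3 groups, at 84.4 in MII, 91.8 in Btg4wt and 58.8 in Btg4tm, where 88.4%, 89.2% and 81.8% of tested genes lay below it. *Atp2b1* stood above *Atp2a2* in both MII and both Btg4wt libraries and below it in both GV and both Btg4tm libraries. The libraries of *Plcb1* and *Trpm7* overlapped in MII and in Btg4wt, as did those of *Ppp3ca* and *Cacna1h* in MII and in Btg4tm, so the order of these neighbours was not resolved there. The gene lengths behind the deposited TPM are not given in the sources used here, which limits any comparison of levels between genes.

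**Figure D1:**
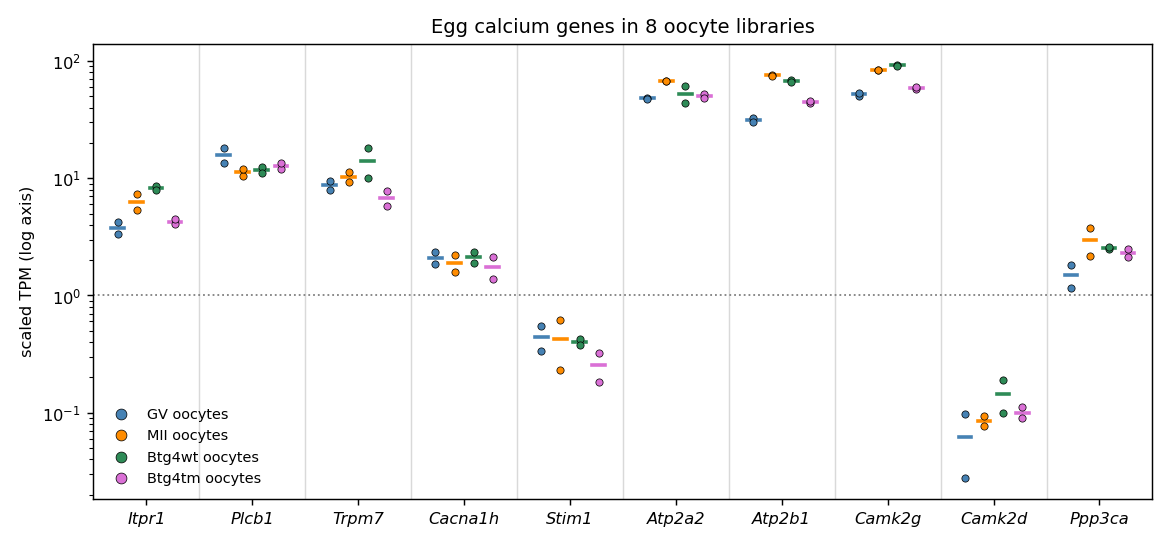
Scaled TPM of the 10 calcium genes (log axis) in 8 libraries. Points are libraries, horizontal bars are means of the 2 libraries of a group, and the dotted line marks 1 scaled TPM. *Camk2g*, *Atp2b1* and *Atp2a2* lie between 30.1 and 93.2 in every library, and *Stim1* and *Camk2d* lie below 1 in every library.

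Calcium release was represented by *Itpr1* and *Plcb1*. *Itpr1* (ENSMUSG00000030102.11, chromosome 6, 108213096 to 108551109, plus strand) encodes the type 1 inositol trisphosphate receptor, the release channel of the endoplasmic reticulum. It read 3.35 and 4.24 scaled TPM in GV, 7.30 and 5.33 in MII, 8.56 and 7.87 in Btg4wt, and 4.07 and 4.47 in Btg4tm. Both MII libraries stood above both GV libraries and both Btg4tm libraries stood below both Btg4wt libraries, while Btg4tm and GV overlapped. The difference on the log2(scaled TPM + 1) scale, which understates the change of low genes, was 0.60 ± 0.21 (SE, limma adjusted p = 0.033) for MII over GV and -0.81 ± 0.21 (adjusted p = 0.012) for Btg4tm over Btg4wt. Both passed the p threshold and stayed under the minimum log2 difference of 1 needed for a call. *Plcb1* (ENSMUSG00000051177.16, chromosome 2, 134786067 to 135475258, plus strand) encodes a phospholipase C that acts downstream of G proteins. Its values were 18.1 and 13.4 in GV, 10.5 and 12.0 in MII, 12.6 and 11.0 in Btg4wt, and 11.9 and 13.6 in Btg4tm. Both MII libraries stood below both GV libraries, and the injected groups overlapped each other. For MII over GV *Plcb1* had the most negative difference of the 8 tested genes, at -0.44 ± 0.19 (adjusted p = 0.066 by limma), which missed the threshold. For Btg4tm over Btg4wt the difference was 0.11, with a 95% interval from -0.32 to 0.53.

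Entry was represented by *Trpm7*, *Cacna1h* and *Stim1*. *Trpm7* (ENSMUSG00000027365.14, chromosome 2, 126791565 to 126876230, minus strand) encodes a channel with a kinase domain that passes calcium and magnesium. Its levels were 7.96 and 9.46 in GV, 9.23 and 11.4 in MII, 18.2 and 10.1 in Btg4wt, and 5.78 and 7.76 in Btg4tm. The first Btg4wt library was the highest of the 8, MII overlapped GV, and both Btg4tm libraries were below every other library. *Trpm7* differed by -0.92 ± 0.28 between Btg4tm and Btg4wt (limma adjusted p = 0.024) and by 0.22 ± 0.28 between MII and GV (adjusted p = 0.51). *Cacna1h* (ENSMUSG00000024112.16, chromosome 17, 25374285 to 25433783, minus strand) encodes the pore of a T-type, low-voltage-activated channel. It stayed between 1.37 and 2.37 scaled TPM in all 8 libraries, and the libraries overlapped in all 4 comparisons. Its difference was -0.10 (95% interval -0.66 to 0.45) for MII over GV and -0.19 (-0.75 to 0.36) for Btg4tm over Btg4wt. *Stim1* (ENSMUSG00000030987.5, chromosome 7, 102267806 to 102437319, plus strand) encodes a sensor of calcium in the endoplasmic reticulum that opens ORAI channels. Its values of 0.339 and 0.554 in GV, 0.232 and 0.621 in MII, 0.428 and 0.381 in Btg4wt, and 0.323 and 0.184 in Btg4tm lay under the filter.

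Clearance was represented by a pump of each membrane. *Atp2b1* (ENSMUSG00000019943.10, chromosome 10, 98914406 to 99026143, plus strand) encodes a plasma membrane calcium ATPase, which exports calcium from the cell. It read 32.9 and 30.1 scaled TPM in GV, 76.0 and 75.1 in MII, 68.4 and 66.8 in Btg4wt, and 43.9 and 45.6 in Btg4tm. The 4 groups did not overlap, and the Btg4tm level lay between GV and Btg4wt. *Atp2b1* rose from GV to MII 2.36-fold, a log2 difference of 1.24 ± 0.11 (95% interval 1.0 to 1.48, limma adjusted p = 2.4e-05), and it was the only call among the 8 tested genes in any of the 4 comparisons. It was lower in Btg4tm than in Btg4wt, at 0.667-fold (log2 difference -0.58 ± 0.11, adjusted p = 0.0021), and higher in Btg4tm than in GV, at 1.41-fold (0.49 ± 0.11, adjusted p = 0.024), both short of the fold minimum.

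*Atp2a2* (ENSMUSG00000029467.15, chromosome 5, 122453513 to 122502225, minus strand) encodes SERCA2, the pump that returns calcium to the endoplasmic reticulum. Its levels were 48.8 and 47.9 in GV, 67.1 and 68.0 in MII, 61.1 and 44.3 in Btg4wt, and 52.3 and 48.7 in Btg4tm. MII stood above GV, and the widely spaced Btg4wt libraries enclosed both Btg4tm libraries. The difference was 0.47 ± 0.15 for MII over GV (adjusted p = 0.024 by limma) and -0.04 for Btg4tm over Btg4wt (95% interval -0.39 to 0.30). Of the 50-base words of its exons, 4.58% also occur in *Gm30970*, so a small part of its reads could be lost or split, and the share for *Atp2b1* was 2.13% with *Gm29808*. Because both pumps were read in the same library, their ratio does not depend on scaling, but it was not corrected for transcript length or GC content. *Atp2b1* over *Atp2a2* was 0.674 and 0.630 in GV, 1.13 and 1.10 in MII, 1.12 and 1.51 in Btg4wt, and 0.840 and 0.937 in Btg4tm.

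The response was represented by *Camk2g*, *Camk2d* and *Ppp3ca*. *Camk2g* (ENSMUSG00000021820.18, chromosome 14, 20734875 to 20794088, minus strand) encodes the gamma subunit of CaMKII, the kinase known to release mouse eggs from metaphase II arrest. It read 50.8 and 53.4 scaled TPM in GV, 84.5 and 84.3 in MII, 93.2 and 90.5 in Btg4wt, and 57.8 and 59.9 in Btg4tm. The libraries of each group lay close together and no groups overlapped. *Camk2g* was higher in MII than in GV by 0.69 ± 0.10 on the log2 scale, or 1.61-fold (limma adjusted p = 0.00041), and lower in Btg4tm than in Btg4wt by -0.63 ± 0.10, or 0.645-fold (adjusted p = 0.00094). Btg4tm over GV differed by 0.17 ± 0.10 (adjusted p = 0.28). *Camk2d* (ENSMUSG00000053819.16, chromosome 3, 126596302 to 126846326, plus strand), the delta subunit, lay between 0.0276 and 0.191 in the 8 libraries and was not tested. *Ppp3ca* (ENSMUSG00000028161.17, chromosome 3, 136670124 to 136937727, plus strand), a catalytic subunit of calcineurin, read 1.82 and 1.15 in GV, 3.75 and 2.16 in MII, 2.47 and 2.57 in Btg4wt, and 2.12 and 2.50 in Btg4tm. MII stood above GV without overlap, at 0.65 ± 0.26 (adjusted p = 0.056 by limma), which missed the threshold, and Btg4tm overlapped Btg4wt (-0.09, 95% interval -0.69 to 0.51).

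**Figure D2:**
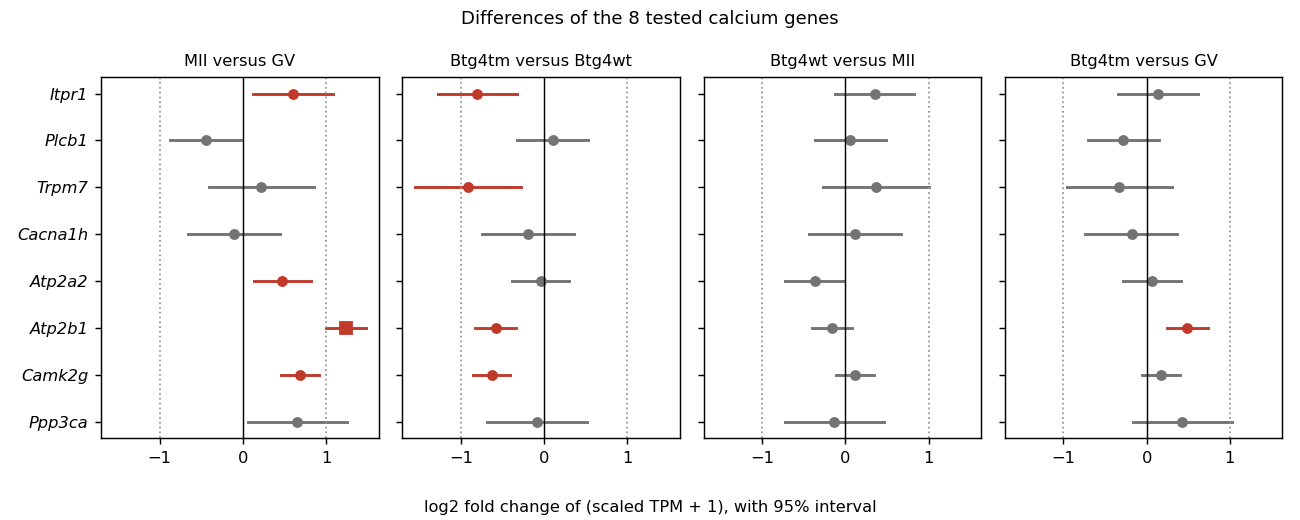
Log2 differences of (scaled TPM + 1) with 95% intervals for the 8 tested calcium genes in 4 comparisons, on the median-of-ratios scale. Red marks an adjusted p below the threshold, the square marks a call that also passed the fold minimum (dotted lines), and grey marks neither. *Atp2b1* in MII versus GV, at 1.24, is the one square.

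The first question was how these mRNAs changed while uninjected oocytes matured. Of the 8 tested, 1 was called higher in MII than in GV and 0 lower, where 12.5% of all tested genes were called higher and 24.0% lower. Without the fold minimum, 4 of 8 passed as higher (*Atp2b1*, *Camk2g*, *Itpr1* and *Atp2a2*) and 0 as lower, against 29.8% and 32.8% of all genes. At an unadjusted p under 0.05, 6 of 8 passed in either direction, against 66.4% of all genes. The median log2 difference was 0.53 over the 8 genes and 0.0 over all tested genes. When any 1 library was left out, the log2 difference lay between 0.41 and 0.8 for *Itpr1* and between 0.46 and 0.49 for *Atp2a2*. For neither gene did every such fit pass the p threshold. TPM as deposited gave limma adjusted p of 0.087 for *Itpr1* and 0.12 for *Atp2a2*. Quantile normalization gave 0.0036 and 0.0042, and a fit of only the 4 libraries of the comparison gave 0.061 and 0.0074.

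The second question was how the phosphosite mutant differed from wild-type BTG4 when both were injected. This comparison shares no library with MII versus GV. With limma, 0 of 8 calcium genes were called higher or lower in Btg4tm, where 18.1% of all genes were called higher and 7.94% lower. Without the fold minimum, 0 of 8 passed as higher and 4 as lower (*Trpm7*, *Itpr1*, *Camk2g* and *Atp2b1*), against 26.2% and 23.3% of all genes. These 4 were also the ones with an unadjusted p under 0.05, as had 55.5% of all genes. The median log2 difference was -0.38 over the 8 genes and 0.01 over all genes. Without the first Btg4wt library the difference of *Trpm7* was -0.52 (adjusted p = 0.15) and without the first Btg4tm library -0.73 (0.12), while without the second of either group it was called, at -1.32 and -1.10. The adjusted p of *Itpr1* was 0.062 and 0.056 without those first libraries.

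The other 2 comparisons reuse libraries of these. For Btg4wt over MII, limma called 0 of 13968 genes (0.0% at the adjusted threshold), and 1655 (11.8%) had an unadjusted p under 0.05. Of the 8 calcium genes *Atp2a2* was among those, with both Btg4wt libraries below both MII libraries and a log2 difference of -0.37 (adjusted p = 0.40). *Itpr1* differed by 0.35, *Trpm7* by 0.37 and *Camk2g* by 0.12. For Btg4tm over GV, 1.02% of all genes were called higher and 1.02% lower, and 0 calcium genes. *Atp2b1* alone passed without the fold minimum and at an unadjusted p under 0.05, where 7.66% of all genes passed as higher and 3.73% as lower. Its adjusted p lay between 0.051 and 0.14 when 1 library of GV, MII or Btg4tm was left out.

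These are changes relative to the median gene. When the libraries were scaled to their mitochondrially encoded RNAs instead, the median log2 difference of all genes became -1.74 for MII over GV and 0.88 for Btg4tm over Btg4wt. On that scale all 8 calcium genes had negative differences in the former, with 0 called higher and 6 lower, and positive differences in the latter, with 2 called higher and 0 lower. Relative to the shifted median, *Ppp3ca* stood at 0.91, *Atp2b1* at 0.81, *Itpr1* at 0.51, *Camk2g* at 0.24, *Cacna1h* at 0.17, *Atp2a2* at 0.04, *Trpm7* at -0.04 and *Plcb1* at -0.75 for MII over GV. This scaling multiplies all genes of a library by the same factor. These distances therefore differ from those on the median-of-ratios scale only through the 1 added before the logarithm, which understates the change of low genes. The 0.04 of *Atp2a2*, which passed the p threshold as higher in MII on the median-of-ratios scale, is thus no separate result. For Btg4tm over Btg4wt, *Trpm7* stood at -0.81, *Itpr1* at -0.75, *Camk2g* at -0.44, *Atp2b1* at -0.39, *Cacna1h* at -0.37, *Ppp3ca* at -0.21, *Atp2a2* at 0.15 and *Plcb1* at 0.23. Within single libraries, *Camk2g* over *Plcb1* was 2.80 and 3.98 in GV, 8.07 and 7.02 in MII, 7.42 and 8.23 in Btg4wt, and 4.84 and 4.42 in Btg4tm, with no overlap of GV and MII or of Btg4tm and Btg4wt.

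The calcium mRNAs were long, and in these libraries the differences moved with transcript length. Their median chosen transcript was 6315.5 bases, against 2866 bases for 11093 tested coding genes, and 97.8% of those genes had a shorter transcript than *Itpr1* (9870 bases). When 13663 tested genes were split into 10 bins by length, the longest bin held 5 of the 8 tested calcium genes. The median log2 difference of that bin was 0.61 for MII over GV and -0.63 for Btg4tm over Btg4wt, and in the shortest bin it was -0.41 and 0.35. After trends with length and GC content were removed from each library, *Camk2g* kept differences of 0.87 (adjusted p = 0.00011) and -0.67 (0.00068) in these comparisons. *Atp2b1* went to 0.35 (adjusted p = 0.015), which is no longer a call, and to 0.18 (0.17). *Atp2a2*, with a transcript of 4486 bases, stood at 0.42 (limma adjusted p = 0.037) and 0.16 (0.41), near *Atp2b1* in both comparisons. *Itpr1* went to 0.05 (0.81) and -0.17 (0.48), and *Trpm7* to -0.81 (0.025) and -0.06 (0.87). *Plcb1*, at -1.21 (adjusted p = 0.00048) and 0.80 (0.0061), was called lower in MII after the correction, and *Ppp3ca* passed the p threshold for MII over GV at 0.85 (0.021). *Camk2g* thus passed the p threshold with and without the correction in both comparisons. The correction took out length and GC content together, and their parts in these shifts were not separated. GC content was 51.8% in *Camk2g*, 49.5% in *Itpr1*, 46.3% in *Ppp3ca*, 44.5% in *Plcb1*, 42.6% in *Atp2b1* and 40.1% in *Trpm7*. The median of tested coding genes was 49.4%. Whether the trend with length is one of the oocytes or of the library preparation was not tested.

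**Figure D3:**
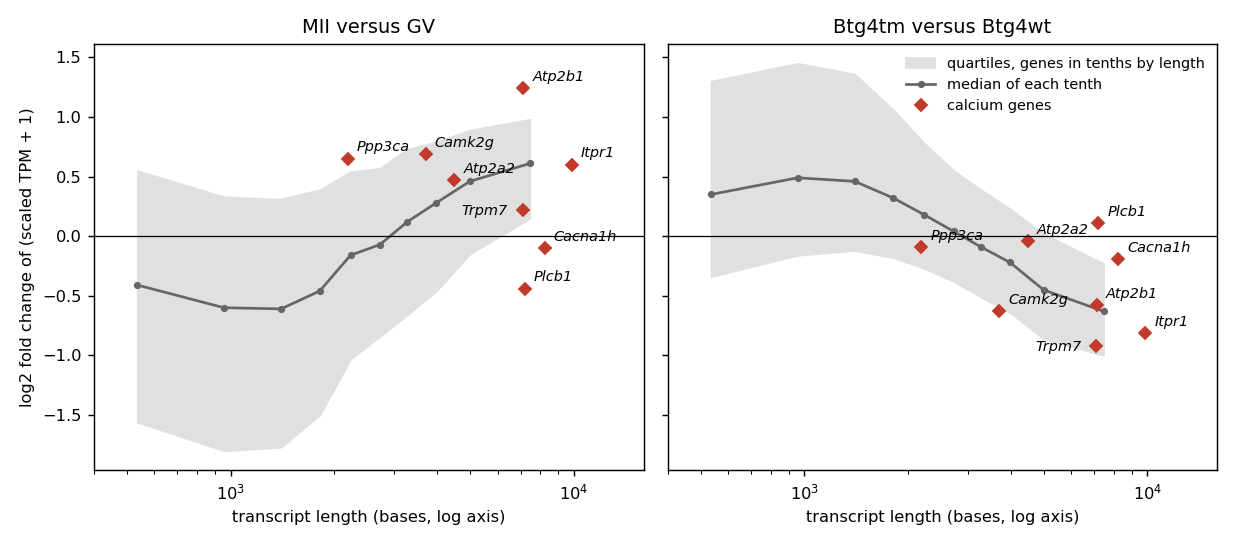
Log2 difference of (scaled TPM + 1) against transcript length (log axis) for MII versus GV and Btg4tm versus Btg4wt. The grey line and band are the median and quartiles of tested genes in 10 bins by length, and red diamonds are the 8 tested calcium genes. The median goes from -0.41 in the shortest bin to 0.61 in the longest for MII versus GV, and from 0.35 to -0.63 for Btg4tm versus Btg4wt.

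Several members were set beside their paralogs as a share of the family's summed TPM, which does not depend on scaling between libraries. *Itpr1* made up 9.93% to 15.9% of the inositol trisphosphate receptor mRNA and *Itpr2* 83.1% to 88.4% in all 8 libraries. *Itpr2* rose from 21.7 scaled TPM in GV to 48.2 in MII (log2 difference 1.11, limma adjusted p = 0.00029), and was 54.7 in Btg4wt and 29.2 in Btg4tm. Here and below, values of genes other than the members are given without the correction for length and GC content. *Stim1* made up 0.275% to 1.13% of STIM mRNA, the rest being *Stim2*. *Camk2g* held 99.5% to 99.9% of the CaMKII mRNA listed, *Atp2b1* 87.8% to 95.7% of plasma membrane calcium pump mRNA, and *Plcb1* 64.2% to 72.8% of the phospholipase C beta mRNA listed. These families kept 1 leading member in every library.

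Calcineurin and the mitochondrial uniporter did not keep their makeup. *Ppp3ca* was 8.83% and 4.16% of catalytic calcineurin mRNA in GV, 45.2% and 28.4% in MII, 25.6% and 39.0% in Btg4wt, and 9.26% and 13.4% in Btg4tm. The remainder was mostly *Ppp3cc*, which fell from 21.4 scaled TPM in GV to 3.66 in MII (log2 difference -2.24, limma adjusted p = 0.00019) and was 4.52 in Btg4wt and 16.7 in Btg4tm. *Mcu*, the uniporter pore, was 11.2% and 14.1% of the sum with its dominant-negative paralog *Mcub* in GV, 50% and 47.1% in MII, 48.1% and 52.9% in Btg4wt, and 5.92% and 5.79% in Btg4tm. Both Btg4tm libraries thus had a lower *Mcu* share than both GV libraries.

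**Figure D4:**
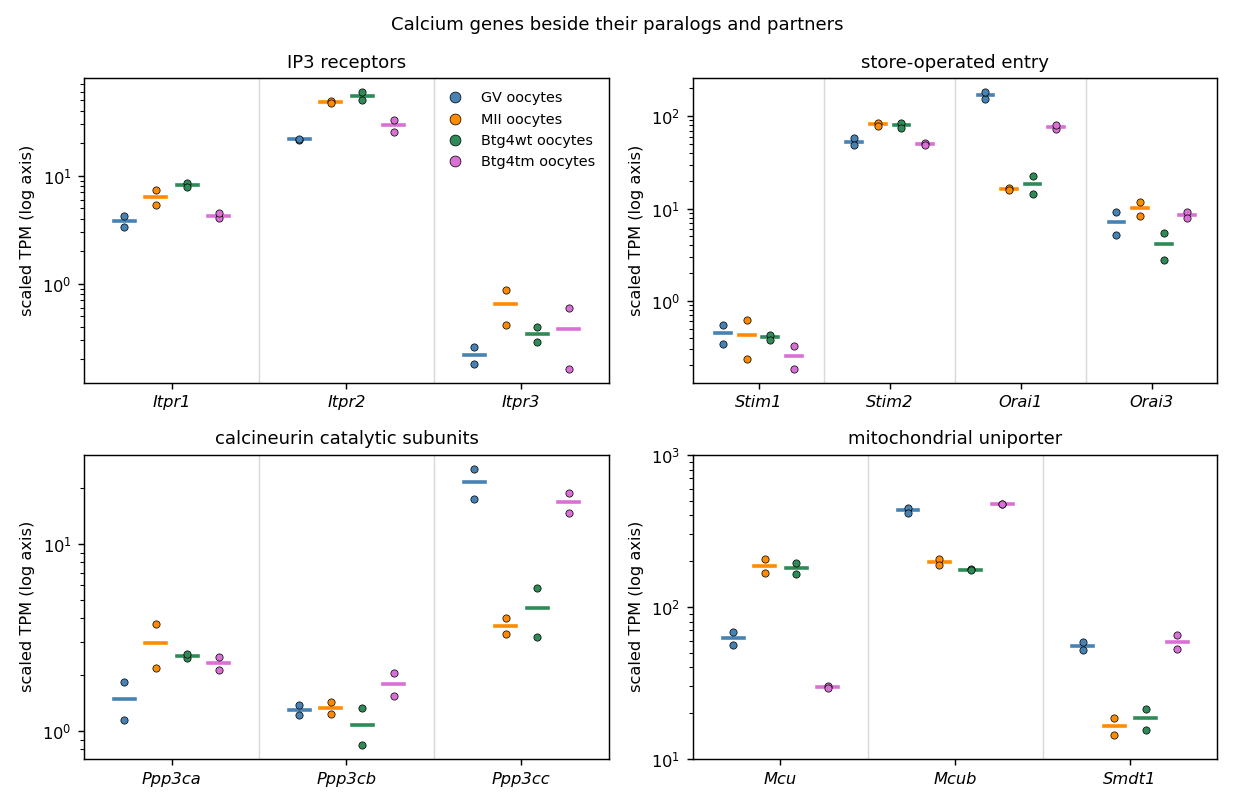
Scaled TPM (log axes) of calcium genes beside paralogs and partners in 8 libraries, with points for libraries and bars for means of the 2 libraries of a group. *Ppp3cc*, *Orai1* and *Mcub* are lower in MII and Btg4wt than in GV and Btg4tm on the median-of-ratios scale, and *Mcu* is lowest in Btg4tm, at a mean of 29.6.

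A wider list held 73 other calcium genes, of which 57 were listed in every library and 47 were tested. The other 16 were not analysed here. For MII over GV, 5 of the 47 were called higher and 11 lower, with a median log2 difference of 0.02, where 12.5% and 24.0% of all tested genes were called. For Btg4tm over Btg4wt 7 were called higher and 4 lower, with a median of -0.02, where 18.1% and 7.94% of all tested genes were called. These counts are close to the shares of all genes, so they set the list apart in neither comparison. Without the fold minimum 16 passed as higher and 13 as lower for MII over GV (29.8% and 32.8% of all genes), and 13 and 9 for Btg4tm over Btg4wt (26.2% and 23.3%). For Btg4tm over GV, 0 were called higher and 2 lower (1.02% of all genes each way), and for Btg4wt over MII 0 were called.

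Among the release genes, the G protein subunits *Gnaq* and *Gna11*, which both activate phospholipase C beta, differed in opposite ways. *Gnaq* rose by 1.16 from GV to MII and was called lower by -1.31 in Btg4tm, while *Gna11* fell by 1.46 and was called higher by 1.67. *Plcg1*, a phospholipase C activated by tyrosine kinases, was called lower in Btg4tm (2.15 against 8.55 scaled TPM, log2 difference -1.60, limma adjusted p = 0.00041) and differed by 0.01 between MII and GV. *Plcd3*, another phospholipase C, read 1.6 and 1.92 scaled TPM in GV, and 0.0886 and a listed 0 in MII. It reached 1 TPM only in the GV libraries, so it entered the test through the group where it was high and its call as lower in MII could have gone no other way.

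Among the 6 entry genes, *Orai1*, the pore of the store-operated channel that STIM proteins open, was the one called. It fell from 168 scaled TPM in GV to 16.4 in MII (log2 difference -3.28 ± 0.20, limma adjusted p = 4.2e-06), and stood at 18.5 in Btg4wt and 77.2 in Btg4tm, higher than Btg4wt by 2.03 and lower than GV by -1.11, both called. Its partner *Stim2* was higher in MII than in GV, by 0.62 (adjusted p = 0.0027). The ratio of *Orai1* to *Stim2* within a library was 2.67 and 3.73 in GV, 0.201 and 0.199 in MII, 0.170 and 0.302 in Btg4wt, and 1.44 and 1.67 in Btg4tm.

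The clearance and storage genes included the uniporter. *Mcu* rose from 62.3 scaled TPM in GV to 187 in MII (log2 difference 1.57, limma adjusted p = 4.3e-05) and was 180 in Btg4wt and 29.6 in Btg4tm, called lower than Btg4wt by -2.56 and lower than GV by -1.04. *Mcub* fell from 431 in GV to 197 in MII, and stood at 176 in Btg4wt and 476 in Btg4tm, a called difference of 1.43. *Smdt1*, the small subunit EMRE of the uniporter, fell by 1.70 in MII and was higher by 1.64 in Btg4tm, and 16.6% of its exonic bases overlap *Pheta2* on the same strand. *Calr*, the calcium-binding chaperone calreticulin, fell by 1.21 in MII and was 0.97 higher in Btg4tm (adjusted p = 7.7e-05), just under the fold minimum. *Atp2b4*, a paralog of *Atp2b1*, was called lower in Btg4tm, at 0.389 against 2.07 scaled TPM in Btg4wt. It reached 1 scaled TPM only in the MII and Btg4wt libraries, so it entered the test through groups where it was higher.

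Of 12 other response genes tested, 2 were called higher in MII, among them *Rcan1*, by 1.19, and *Calm2*, *Camk4* and *Ppp3cc* were called lower, by -1.77, -1.18 and -2.24. *Rcan1* encodes an inhibitor of calcineurin, *Camk4* a calmodulin-dependent kinase and *Calm2* calmodulin, and 12.7% of the 50-base words of *Calm2* also occur in 3 other genes, so its values are uncertain. *Calm2* and *Ppp3cc* were called higher in Btg4tm than in Btg4wt, by 2.11 and 1.72. *Camk4* differed there by 0.54 (limma adjusted p = 0.21) and *Rcan1* by -0.39 (adjusted p = 0.098). Of 9 genes of cortical granule exocytosis, the calcium-triggered secretion that hardens the zona pellucida, *Napa* and *Rab3a* fell in MII, by 2.2 and 1.07. *Napa* encodes alpha-SNAP, which recycles the fusion machinery, and *Rab3a* a vesicle GTPase. *Napa* was called higher in Btg4tm by 2.09, and *Rab3a* differed there by 0.76 (adjusted p = 0.0016).

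The gene with the pattern closest to that of *Atp2b1*, the only member called, was *Kif18a*, which encodes a kinesin. The measure was the distance between the centred log2 values of the 8 libraries, and it was 0.0926 among 6882 genes whose mean reached 10 scaled TPM. *Kif18a* read 31.9 and 30.3 scaled TPM in GV, 74.8 and 71.7 in MII, 68.3 and 68.4 in Btg4wt, and 42.0 and 44.3 in Btg4tm. It was higher in MII and Btg4wt than in GV and Btg4tm in every library, as *Atp2b1* was. This likeness follows from how the gene was chosen and is no separate result.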

How the data were processed

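Per the labels and the study's methods, the authors reverse transcribed RNA with oligo(dT), trimmed reads with Trim Galore 0.6.10, aligned them to GRCm38 with HISAT2 2.2.0, and counted exonic reads of mapping quality 10 or more with featureCounts 2.0.6, unstranded. They deposited TPM by gene symbol, one table per library, summing to between 996199 and 998615. The labels mention 3 samples a group, and 2 a group were analysed here. The authors' own tests were not used.

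The 15962 genes in the tables of all 8 libraries were brought to a common scale with median-of-ratios factors, and log2(TPM + 1) was taken. Genes reaching 1 TPM in 2 or more libraries (13968) were fitted over all 8 libraries with limma 3.58.1 in R 4.3.3 (moderated with a trend). A call needed an adjusted p-value (Benjamini-Hochberg, all tested genes) under 0.05 and an absolute log2 difference above 1. The fit was tested on simulated data. Annotation was GENCODE M21 on GRCm38, matched by symbol for 13663 tested genes. Alternatives were other scalings, pseudocount, filters, thresholds and fits, a replicate block, removal of length and GC trends, and leaving out each library.

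The members, gene lists and tests were chosen with earlier results of these data known. The text names the 10 members, other listed calcium genes called in MII versus GV or Btg4tm versus Btg4wt, and the gene nearest in profile to each called member. The family shares and ratios, and *Stim2*, were described after their values were seen. One listed gene that was called is not reported here.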

Additional observations from a re-analysis of the deposited data

How the results depend on the processing

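Over the alternatives, 593 of 632 differences of the 8 tested genes kept their direction. A fit with the replicate number as a block left all 32 differences on the same side of zero and of the threshold, with 1 call higher and 0 lower for MII versus GV. Same-numbered libraries of different groups did not deviate together (r between -0.0539 and 0.0555), so the numbers were not taken to pair them. Scaling to mitochondrially encoded RNAs moved the median of all genes by -1.74 for MII versus GV, 0.88 for Btg4tm versus Btg4wt, 0.39 for Btg4wt versus MII and -0.64 for Btg4tm versus GV, and reversed the genes given next. For MII versus GV it gave -1.23 for *Itpr1*, -1.78 for *Trpm7*, -1.70 for *Atp2a2*, -0.94 for *Atp2b1*, -1.50 for *Camk2g* and -0.83 for *Ppp3ca*, with 0 calls higher and 6 lower. For Btg4tm versus Btg4wt it gave 0.12 for *Itpr1*, 0.06 for *Trpm7*, 0.51 for *Cacna1h*, 1.02 for *Atp2a2*, 0.48 for *Atp2b1*, 0.44 for *Camk2g* and 0.67 for *Ppp3ca*, with 2 calls higher. For Btg4wt versus MII it gave 0.12 for *Atp2a2*, 0.33 for *Atp2b1* and 0.18 for *Ppp3ca*, and for Btg4tm versus GV -0.40 for *Itpr1*, -0.56 for *Atp2a2*, -0.12 for *Atp2b1* and -0.45 for *Camk2g*. Relative to the moved median, these genes kept the direction they had before, apart from *Trpm7* in MII versus GV (-0.04) and *Atp2a2* in Btg4tm versus Btg4wt (0.15). This is no further test of direction, because the scaling multiplies all genes of a library by the same factor. Distances from the median could change only through the 1 added before the logarithm.

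Removing length and GC trends gave -0.81 for *Trpm7* in MII versus GV, 0.10 for *Cacna1h*, 0.16 for *Atp2a2* and 0.18 for *Atp2b1* in Btg4tm versus Btg4wt, and 0.07 for *Cacna1h* in Btg4tm versus GV, and left 0 calls higher and 1 lower in MII versus GV. Quantile normalization gave 0.21 for *Cacna1h* in MII versus GV and -0.11 for *Plcb1* in Btg4tm versus Btg4wt, where it called 2 lower (*Itpr1* and *Trpm7*), and TPM as deposited gave -0.10 for *Atp2a2* in Btg4tm versus GV. A pseudocount of 0.1 called 1 gene lower in Btg4tm (*Trpm7*). Without the minimum fold change 4 genes passed as higher in MII versus GV, 4 as lower in Btg4tm versus Btg4wt and 1 as higher in Btg4tm versus GV. The cause of the quantile and deposited-scale turns was not tested.

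Fits without 1 library leave its group with 1, which is then assumed to vary like the others. They called 0 to 1 genes lower in Btg4tm versus Btg4wt. The differences that changed sign ranged from -0.26 to 0.06 for *Cacna1h* in MII versus GV, from -0.40 to 0.01 for *Cacna1h* and -0.27 to 0.18 for *Atp2a2* in Btg4tm versus Btg4wt, and from -0.38 to 0.02 for *Cacna1h* in Btg4tm versus GV. In Btg4wt versus MII they ranged from -0.03 to 0.15 for *Plcb1*, -0.03 to 0.77 for *Trpm7*, -0.05 to 0.28 for *Cacna1h* and -0.43 to 0.16 for *Ppp3ca*. *Atp2b1* in MII versus GV stayed called in these fits, between 1.18 and 1.30. A filter at 5 TPM gave no value for *Cacna1h* and *Ppp3ca*. TPM give no depth, so the low levels of *Stim1* and *Camk2d* have no counting error here.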
